A study of Mus musculus with 4 samples.

Results

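The listed 5mC and 5hmC positions of 3 short stretches of the mouse genome are described here, on chromosome 2 (118 to 124 Mb), chromosome 3 (148 to 154 Mb) and chromosome 7 (82 to 86 Mb) of build GRCm38. The stretches were chosen from the deposited values themselves, because 5-methylcytosine (5mC) sites within each mostly differed in 1 direction between knockout and wild type, lower on chromosome 2 and higher on chromosomes 3 and 7. The 5mC directions given below are therefore a description of how the stretches were picked, and nothing is supported with them. The stretches hold 1066 of the 125070 listed sites, of which 588 are among the 53206 sites of the 5mC table and 478 are among the 71864 sites of the 5hmC table. Chromosome 2 contributed 316 5mC and 237 5hmC sites, chromosome 3 contributed 155 and 146, and chromosome 7 contributed 117 and 95.

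The cells were Lin-Sca-1hic-kit+ (LSK) cells from mouse bone marrow, the fraction that contains the haematopoietic stem cells and early progenitors. A wild-type control (WT) was set against an HDAC6 knockout (HDAC6 KO, below KO). Bisulfite sequencing (WGBS) and oxidative bisulfite sequencing (oxWGBS) gave 1 library each per genotype, 4 in all. Not given in the sources used here were the knockout allele, the cells it acts in, the strain, age and sex of the mice, and any pooling of animals. With 1 library per genotype and assay no difference has a replicate check, and a difference between genotypes cannot be told apart from a difference between the animals or libraries used.

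5mC at CpG dinucleotides is the prevailing methylated state of the mammalian genome outside CpG islands, and it is copied onto new strands at each division by the maintenance methyltransferase. TET enzymes oxidise 5mC to 5-hydroxymethylcytosine (5hmC), using 2-oxoglutarate, the product of the isocitrate dehydrogenases named in the study's title. Bisulfite treatment alone reads both marks as methylated, while prior oxidation leaves 5mC as the protected base. The labels give WGBS libraries the title 5mc and oxWGBS libraries the title 5hmc, which does not match this chemistry. By it, a level from WGBS alone would hold both marks and one from oxWGBS alone would be 5mC. Whether the deposited levels come from single libraries or from a subtraction is not stated, so the names 5mC and 5hmC below are those of the deposited tables.

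Every listed position in the stretches that could be set against reference sequence was the C of a CpG, namely 3 of 3 for 5mC and 8 of 8 for 5hmC. The sequences below are of CpGs that lay in a promoter window, taken as the 250 bases before to the 50 bases after a gene's start, and are shown because these listed sites are close to a start. Capn3 on chromosome 2, a calpain protease gene, also had such a site, in 5hmC 39 bases after its start (20% in WT, 60% in KO per the authors' deposited table), and its sequence is not shown. They were read from RefSeq's promoter table for GRCm38.p6, run 5′ to 3′ on the gene's strand, and have the listed CpG in capitals.

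Gm32684 (chr2:118498854-118498926, plus strand): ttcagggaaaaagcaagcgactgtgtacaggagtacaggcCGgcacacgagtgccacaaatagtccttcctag
Gm33947 (chr2:121358770-121358848, minus strand): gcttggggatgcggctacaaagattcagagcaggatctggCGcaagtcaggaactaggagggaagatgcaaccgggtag
Gm5149 (chr3:149334672-149334753, plus strand): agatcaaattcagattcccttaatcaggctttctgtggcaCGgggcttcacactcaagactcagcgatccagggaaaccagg
Cfap161 (chr7:83794843-83794924, minus strand): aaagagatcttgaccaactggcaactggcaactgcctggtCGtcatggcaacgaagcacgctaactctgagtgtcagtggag
Gm32850 (chr7:82119906-82119987, plus strand): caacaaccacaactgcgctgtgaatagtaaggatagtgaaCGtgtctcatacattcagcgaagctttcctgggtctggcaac
4933406J10Rik (chr7:82755697-82755827, minus strand): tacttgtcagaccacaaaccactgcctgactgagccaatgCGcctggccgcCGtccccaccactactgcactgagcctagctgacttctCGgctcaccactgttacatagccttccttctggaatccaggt
Gm46013 (chr7:82012350-82012422, plus strand): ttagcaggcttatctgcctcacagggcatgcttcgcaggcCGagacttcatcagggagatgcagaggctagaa

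Where levels are given as a pair, the wild-type level comes first and the knockout level follows. Apart from Cfap161, which encodes a cilia- and flagella-associated protein, these are long non-coding RNA genes. The Cfap161 CpG lay 45 bases before the start and was at 2.86% 5mC in WT and 35.85% in the knockout per the authors' deposited table. At Gm32684, 18 bases after the start, 5mC was 100% and 40% and 5hmC was 0% and 50% per the authors' deposited table, so the marks differed in opposite directions at a single CpG. Gm32850 was at 50% and 100% 5mC per the authors' deposited table. The remaining windows held 5hmC sites. Of the 8 CpGs in the window of 4933406J10Rik, 3 were listed for 5hmC. These were lower in the knockout, at 30.4%, 25% and 26.9% in WT and 2.63%, 2.04% and 4.08% in the knockout per the authors' deposited table. Gm46013 (32.5% and 2.94%) and Gm33947 (14.6% and 0%) were also lower, and Gm5149 (0% and 31.6%) was higher, per the authors' deposited table. These windows carried 5 to 14 CpGs each, beside a median of 7 over 32851 RefSeq promoter windows (quartiles 3 and 20). The 143 windows in the chromosome 2 stretch had a median of 17 CpGs, the 54 on chromosome 3 had 5.5 and the 62 on chromosome 7 had 3, so the stretches differ in the CpG content of their gene starts.

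The 3 stretches differed in their 5mC levels in either genotype. On chromosome 2, 282 of 316 5mC sites were lower in the knockout (89.2%), beside 59.7% of all listed 5mC sites and 60.8% of the 3624 sites on the rest of that chromosome. On chromosome 3, 112 of 155 were higher (72.3%), and on chromosome 7, 82 of 117 (70.1%), beside 40.3% of all listed sites, 37.7% of 2317 on the rest of chromosome 3 and 40.1% of 3604 on the rest of chromosome 7. Exact binomial (Clopper-Pearson) 95% intervals were 85.3 to 92.4% for the lower share on chromosome 2, 64.5 to 79.1% for the higher share on chromosome 3 and 60.9 to 78.2% for that on chromosome 7. These intervals cover counting error alone, take neighbouring CpGs as independent although they can share reads, and make no allowance for how the stretches were picked.

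On chromosome 2 most lower sites started at or near full methylation, as did lower sites on the rest of the chromosome. Their median was 100% in wild type (quartiles 96 and 100) and 65.4% in the knockout (quartiles 53.1 and 74.0), whereas lower sites on the rest of chromosome 2 had medians of 97.1% and 54.6%. The knockout level was between 50 and 80% at 203 of the 282 (72.0%), beside 53.0% of 2204 lower sites on the rest of the chromosome, and under 50% at 60 (21.3%), beside 41.0%. Wild type was at exactly 100% at 154 of the 282 lower sites (54.6%), beside 45.5% of lower sites on the rest of the chromosome. Higher sites are left out of this share because they cannot be at 100% in wild type. The lower sites of chromosome 2 thus mostly kept an intermediate level in the knockout library.

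On chromosome 3 the higher sites started low. Their wild-type median was 25.7% (quartiles 15.4 and 36.8) and their knockout median 75% (quartiles 64 and 90.1), whereas higher sites on the rest of chromosome 3 had medians of 51.7% and 96%. Wild type was under 50% at 94 of these 112 sites (83.9%), beside 46.6% of 873 higher sites on the rest of the chromosome. Chromosome 7 lay between these patterns. Its higher sites had medians of 30.3% and 82.3%, beside 52.6% and 93.75% on the rest of chromosome 7, and 58 of 82 (70.7%) were under 50% in wild type, beside 44.2% of 1445. The sites against the prevailing direction had levels near those of sites with the same direction on the rest of their chromosome. The 34 higher sites of chromosome 2 had medians of 58.8% and 93.3%, beside 52.9% and 93.75% on the rest of chromosome 2. The 43 lower sites of chromosome 3 had 100% and 55.6%, beside 100% and 53.3%. The 35 lower sites of chromosome 7 had 100% and 60%, beside 97.1% and 55.6%.

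**Figure D1:**
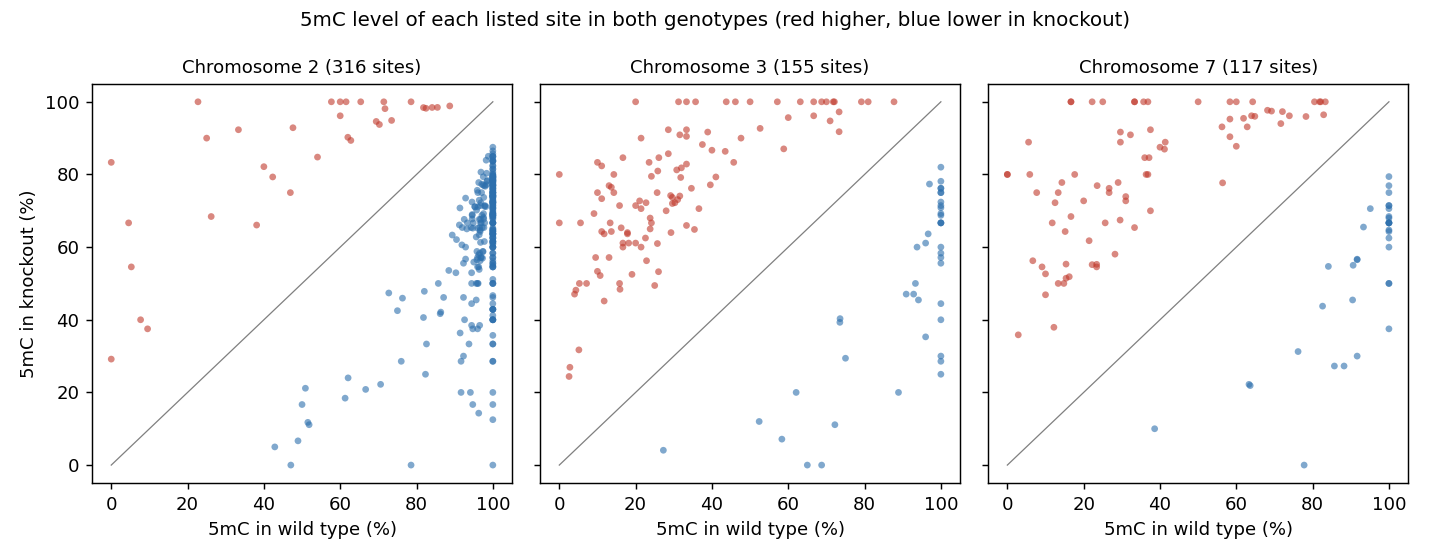
5mC level in wild type (horizontal axis, percent) against that in the knockout (vertical axis, percent) for each listed site, with 1 panel per stretch, 1 point per CpG and the line of equal levels; no site lies near the line because only differences of at least 10 percentage points are listed. On chromosome 2 the points crowd at the right edge, where wild type is at or near 100%, and on chromosome 3 at the upper left, where the median of the higher sites is 25.7% in WT and 75% in the knockout.

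5hmC was more often higher than lower among the listed sites of all 3 stretches, close to its share over all listed sites. Leaving out levels of exactly 0 or 100% kept 29 of the 146 sites on chromosome 3. Of these 48.3% were higher (median difference -13.9 points), and so few sites do not establish a turn. The higher share was 165 of 237 on chromosome 2 (69.6%, exact binomial interval 63.3 to 75.4%), 89 of 146 on chromosome 3 (61.0%, 52.5 to 68.9%) and 56 of 95 on chromosome 7 (58.9%, 48.4 to 68.9%), beside 64.4% of all listed 5hmC sites. The rest of the same chromosomes gave 64.3%, 67.2% and 64.2%, each within the stretch's interval. With the borders of chromosome 7 moved 1 Mb inwards its higher share was 51.2%. Median 5hmC levels in WT and the knockout were 0% and 25% on chromosome 2, 0% and 26.5% on chromosome 3, and 4.17% and 22.2% on chromosome 7.

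Listed sites were also unevenly dense. The chromosome 2 stretch held 52.7 5mC sites per Mb, 2.51 times the 21.0 per Mb on the rest of the chromosome, and chromosome 3 held 25.8, 1.68 times the 15.4 there. Chromosome 7 held 29.3 per Mb, 1.12 times its rest. For 5hmC the densities were 39.5, 24.3 and 23.8 per Mb, which are 1.33, 1.26 and 0.634 times the rest. Coverage and the number of CpGs that could be tested were not used here, and their part in these densities was not tested.

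The majority direction was the same in every bin of 0.5 Mb on chromosomes 2 and 7 but not on chromosome 3. Lower sites were the majority in 12 of 12 bins on chromosome 2, and higher sites in 8 of 8 bins on chromosome 7. Some majorities on chromosome 7 were narrow, such as 6 of 10, 8 of 14 and 14 of 23 sites. Its share of lower sites (29.9%) was near that of chromosome 3 (27.7%). On chromosome 3 higher sites were the majority in 8 of 12 bins, lower sites in 3, and 1 bin was tied. Blocks drawn after these values were seen gave 29 of 34 sites higher from 148 to 150 Mb, 5 of 12 from 150 to 151.5 Mb, 18 of 24 from 151.5 to 152.5 Mb, 10 of 27 from 152.5 to 153.5 Mb and 50 of 58 from 153.5 to 154 Mb. Higher sites were thus not the majority throughout the listed sites of chromosome 3, and its name as a stretch of 1 direction does not hold in every bin. The blocks describe the values that drew them. From 150 to 151.5 Mb there are only 12 sites (exact binomial interval 15.2 to 72.3% higher). A split into separate blocks is therefore not established.

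The longest runs of consecutive listed sites with a common direction were 35 lower sites over 785 kb on chromosome 2, from position 121323483 to 122108194, and 33 lower sites over 381 kb, from 118283239 to 118664524. Chromosome 3 had 18 higher sites over 118 kb, from 153540127 to 153658272, and 15 over 959 kb, from 149127038 to 150086012. The longest run on chromosome 7 was 10 higher sites over 123 kb, from 83759631 to 83882970. The first run of chromosome 2 spans Frmd5 and Spg11 and the second spans Gpr176, Eif2ak4 and Bmf, while the first run of chromosome 3 lies within St6galnac3.

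Within 3 Mb below the chromosome 2 stretch 35 of 52 sites were lower, and within 3 Mb above it 22 of 35, at 17.3 and 11.7 sites per Mb. Lower sites made up 89.2% of the stretch, 60.8% of the rest of the chromosome and 59.7% of all listed 5mC sites. Chromosome 3 had 26 of 61 higher below and 19 of 45 above, and chromosome 7 had 52 of 121 and 18 of 32. Over all listed 5mC sites 40.3% were higher. Flank counts near these wider shares do not show a stretch's direction carrying on past its borders. Between the last site on one side of a border and the first on the other, the direction did not always turn. In the authors' deposited table, the last site below the chromosome 2 stretch, at 117973681, was at 50% and 93.1%, and the first inside, at 118031590, was at 100% and 69.6%. At the upper border the last site inside, 123975171, was at 100% and 83.7% and the first outside, 124255451, at 100% and 83.5% per the authors' deposited table. On chromosome 3 the lower border fell between 147923842 (50% and 100%) and 148250605 (96.7% and 63.6%), and the upper between 153940889 (13.0% and 57.1%) and 154136420 (26.3% and 87.5%), per the authors' deposited table. For chromosome 7 they fell between 81989379 (50% and 6.25%) and 82030751 (100% and 64.7%), and between 85923756 (16.7% and 100%) and 86071781 (97.1% and 71.4%), per the authors' deposited table.

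**Figure D2:**
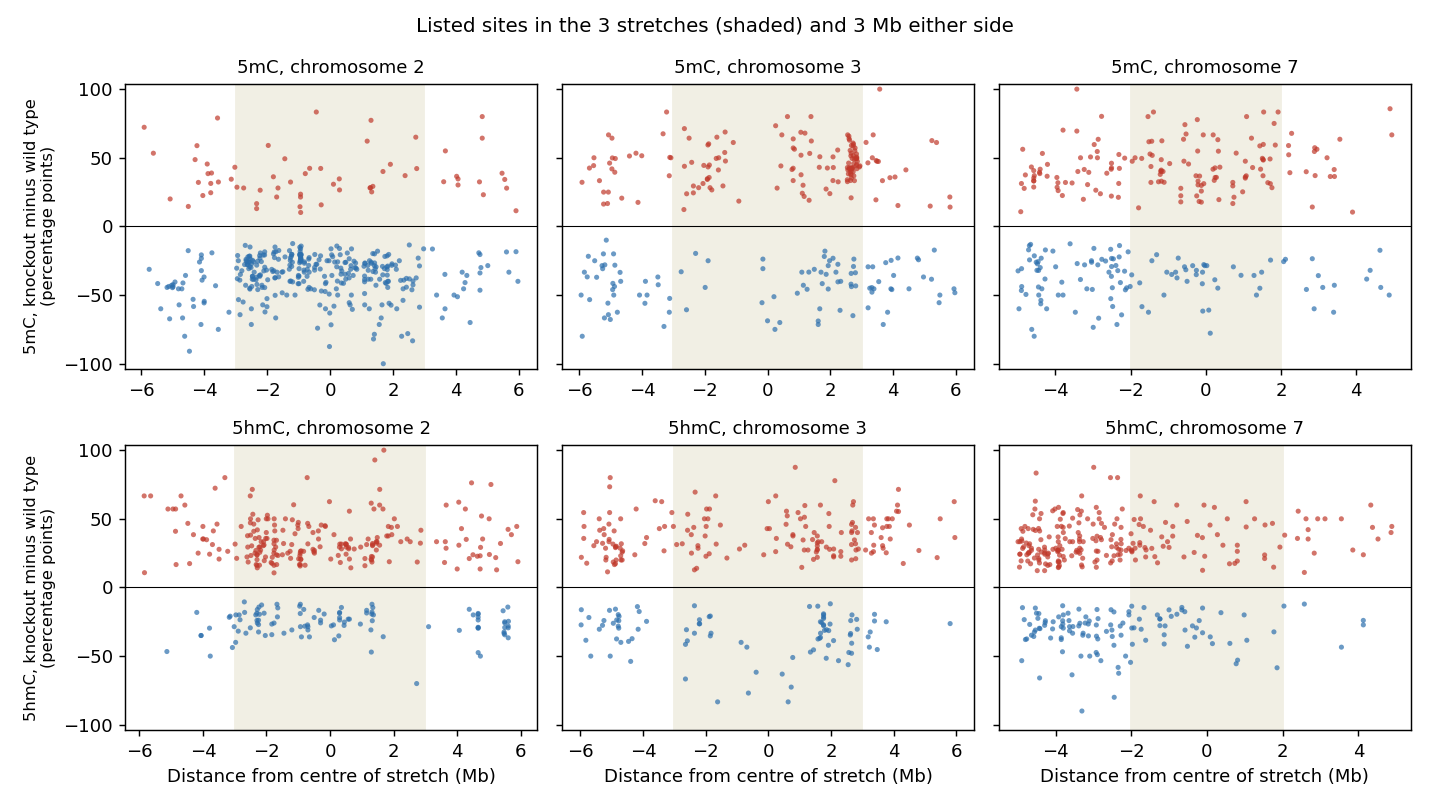
Difference between knockout and wild type (vertical axis, percentage points) of each listed 5mC site (top) and 5hmC site (bottom) against the distance from the stretch's centre (horizontal axis, Mb), with the stretch shaded, 3 Mb shown on each side, higher sites in red and lower sites in blue. The dense blue band on chromosome 2 is the 282 lower of 316 5mC sites. The blue 5mC points among the red ones on chromosome 3 are its 43 lower of 155 sites, which lie in all of its blocks.

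Gene by gene, a site was counted for each gene that holds it or has an end within 2000 bp, so overlapping genes share sites. On chromosome 2, 95 of 171 genes held a 5mC site (55.6%), beside 33.1% of all 49943 genes. Of these, 66 held lower sites alone (the share over all genes with a site is 43.7%), 5 held higher sites alone and 24 held both. Chromosome 3 had 39 of 79 genes with a site (49.4%), with 25 higher alone (29.2% over all genes with a site), 6 lower alone and 8 both. On chromosome 7, 32 of 92 genes held a site (34.8%), with 18 higher alone, 4 lower alone and 10 both. Among genes with at least 2 sites, 32 of 56 on chromosome 2 were lower alone and 0 higher alone, 10 of 19 on chromosome 3 were higher alone and 1 (Pigk) lower alone, and 7 of 17 on chromosome 7 were higher alone and 0 lower alone. The share over all genes with at least 2 sites was not computed. These directions also repeat how the stretches were picked, so the counts are a description and no result about the genes.

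For 5hmC, 95 genes of chromosome 2 held a site, 43 of them higher alone and 18 lower alone; over all genes 38.6% held one, and of those 44.7% were higher alone and 20.7% lower alone. Chromosome 3 had 30 such genes (15 higher alone, 7 lower alone) and chromosome 7 had 30 (7 higher alone, 10 lower alone). Both marks were listed at 66, 26 and 19 genes of the 3 stretches, and the share over all genes was not computed.

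**Figure D3:**
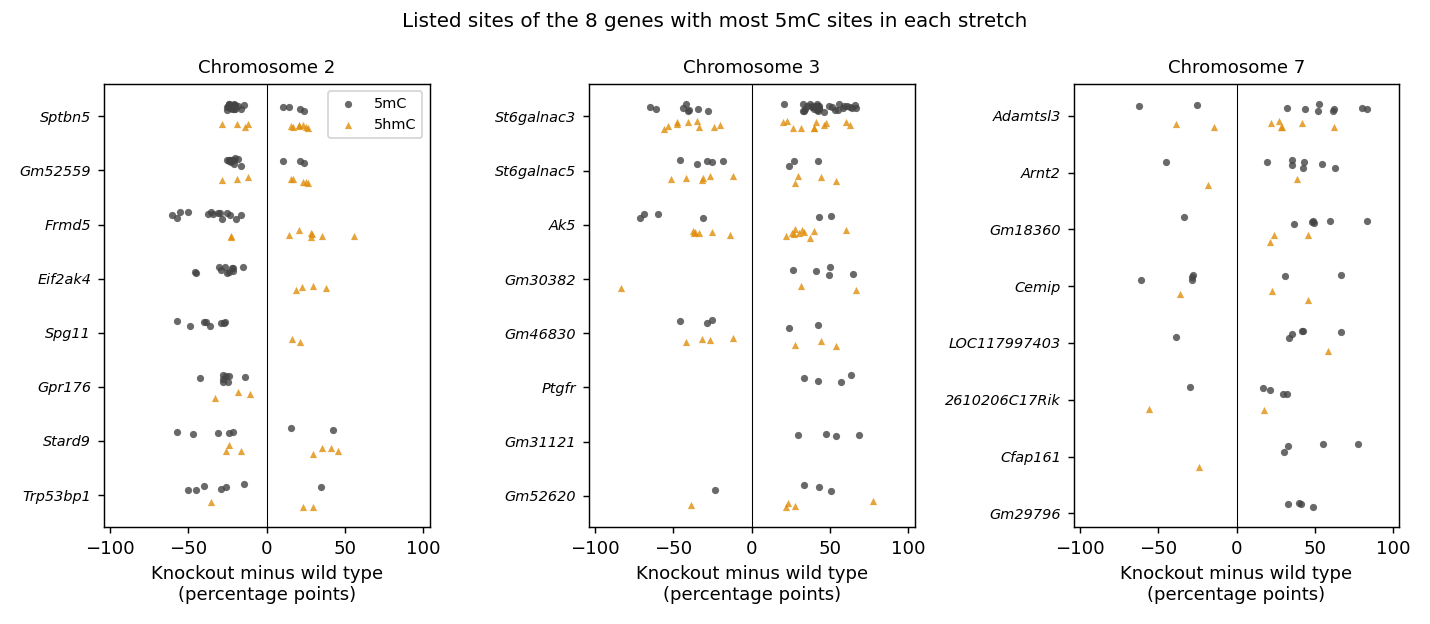
Difference between knockout and wild type (horizontal axis, percentage points) at each listed site of the 8 genes with most 5mC sites in each stretch (vertical axis), with circles for 5mC and triangles for 5hmC. All 5mC circles of Frmd5, Eif2ak4, Spg11 and Gpr176 lie left of 0 and those of Gm30382, Ptgfr and Cfap161 right of it, while the 5hmC triangles lie on both sides in most genes.

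In the chromosome 2 stretch, Spg11 carried the smallest q-values. It encodes spatacsin, a protein of lysosome re-formation that is mutated in a hereditary spastic paraplegia. All 8 of its 5mC sites were lower. Over all listed 5mC sites 0.175% had a q under 0.05 (93 sites); 3 of the 588 in the stretches did, and all 3 lay in Spg11. In the authors' deposited table, position 122098051 was at 100% in WT and 51.1% in the knockout (p = 1.15e-10, q = 6.51e-06). Position 122098020 was at 97.3% and 56.95% (q = 0.0167), and 122097989 at 97.4% and 58.8% (q = 0.0134), per the authors' deposited table. With position 122097958 (92.9% and 56.7%, q = 0.102, per the authors' deposited table) they form a row of 4 CpGs spaced exactly 31 bp apart, and CpGs so close can share reads. 5hmC was also listed at 122097958 (0% and 15.8%) and at 122098051 (0% and 21.05%), per the authors' deposited table. The sum of both levels, knockout minus wild type, was -20.3 and -27.8 points there. Whether the even spacing reflects repeated sequence, in which reads may be misplaced, was not tested for this row. The other Spg11 sites lay 3498 bp or more from this row; at 122101549 the levels were 100% and 42.9% per the authors' deposited table.

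Frmd5, Eif2ak4 and Gpr176 also held lower 5mC sites alone, with larger q-values. Frmd5, which encodes a FERM-domain membrane protein, had 14 of 14 5mC sites lower, with median levels of 98.9% and 65.5%. Eif2ak4, the gene of the kinase GCN2 that senses uncharged tRNA, had 11 of 11 lower. Its wild-type levels ran from 95.65 to 100% and its knockout levels from 50 to 85%. Only differences of at least 10 points are listed, so a gap between such ranges is no result about the gene. Gpr176, an orphan G-protein-coupled receptor gene, had 8 of 8 lower, with medians of 100% and 73.2%, and 2 of its sites are only 2 bp apart. Its 3 5hmC sites were lower too, from 10.5%, 18.2% and 33.3% to 0% per the authors' deposited table. In Eif2ak4 all 4 5hmC sites were higher, and in Frmd5 7 of 9, so neighbouring genes with the same 5mC direction differed in that of 5hmC.

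Sptbn5, the gene of a beta-spectrin, held the most 5mC sites of the stretch, 16 lower and 4 higher. Its 4 higher sites (120044974, 120061817, 120062733 and 120066045) included the first of the series, at 120044974, while the others lay among the lower ones, and 14 of its 20 sites also belong to the overlapping Gm52559. The lowest q in it was at 120072757, with 100% and 77.0% (q = 0.213 per the authors' deposited table). At 3 of the 4 higher positions 5hmC was listed as well and was lower, for example 21.2% and 2.22% at 120062733 per the authors' deposited table. Mapkbp1, which encodes a MAP kinase-binding scaffold, had 6 of 6 5mC sites lower and 4 of 4 5hmC sites higher. Its position 120013222 was at 100% and 58.3% 5mC (q = 0.191) and 0% and 20.8% 5hmC per the authors' deposited table. Over the list of phospholipase A2 and spectrin cluster genes, 6 of 8 held a 5mC site with 37 of 44 sites lower, and 8 of 8 a 5hmC site with 18 of 29 higher.

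Shares over the whole chromosome 2 stretch stand beside each list of its genes: 55.6% of genes held a 5mC site and as many a 5hmC site, 89.2% of 5mC sites were lower and 69.6% of 5hmC sites were higher. Counts near these shares are no result about a list. Epb42, the gene of the red cell membrane protein 4.2, had both sites lower, at 100% and 83.7% (121030619) and at 91.7% and 20% (121032077) per the authors' deposited table. The list of red cell, transglutaminase and stress kinase genes had a 5mC site in 5 of 5 members, with 17 of 19 sites lower, near the 89.2% of the stretch, and 11 of these are in Eif2ak4 alone. Tgm7, a transglutaminase gene, was the exception with higher sites alone, at 54.1% and 84.8% per the authors' deposited table. In that list 4 members had a 5hmC site and 6 of 7 sites were higher.

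Among immune, receptor and cell death genes, 5 of 9 held a 5mC site and 10 of 11 sites were lower, again close to the stretch. Bmf, which encodes a pro-apoptotic BH3-only protein, had 4 of 4 lower with medians of 100% and 63.6%. Tyro3, a receptor tyrosine kinase gene of the TAM family, had 3 of 3 lower, at 100%, 96.7% and 100% in WT and 73.9%, 56.25% and 87.5% in the knockout per the authors' deposited table. 5hmC went both ways in this list, with 13 of 21 sites higher in 8 genes. Spint1, the gene of a hepatocyte growth factor activator inhibitor, had 6 of 7 higher. B2m, the gene of beta-2-microglobulin, had 2 of 3 5hmC sites lower (18.6% and 16.7% to 0% per the authors' deposited table) and no 5mC site. Dll4, a Notch ligand gene, had 1 lower 5hmC site (12.2% and 0% per the authors' deposited table). Plcb2, which encodes a phospholipase C of blood cells, had 3 of 5 5hmC sites higher, with the smallest q at 118713016 (0% and 41.9%, q = 0.230 per the authors' deposited table).

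Mitosis and DNA repair genes had 12 of 13 5mC sites lower in 5 of 11 members, and 8 of 9 5hmC sites higher in 4 members, beside 89.2% of 5mC sites lower, 69.6% of 5hmC sites higher and 55.6% of genes with a site in the stretch. The 5mC counts are near or below those of the stretch. Trp53bp1, which encodes the double-strand break factor 53BP1, had 6 of 7 5mC sites lower. Knstrn, a spindle protein gene, had 2 of 2 lower. Bub1b, the gene of the spindle checkpoint protein BubR1, lacked a listed 5mC site, and its 3 5hmC sites were all higher, at 0%, 7.69% and 0% in WT and 40.9%, 53.85% and 25% in the knockout per the authors' deposited table. Genes of chromatin and transcription had 17 of 18 5mC sites lower in 6 of 10 members and 9 of 12 5hmC sites higher, close to the same shares. Rtf1, a gene of the Paf1 elongation complex, had 5 of 5 lower. Ino80, of the nucleosome remodeller of that name, had 2 of 2. Bahd1, the gene of a heterochromatin protein, had 4 of 4 lower. Its position 118923083 was at 50.9% and 21.2% 5mC and at 0% and 30.95% 5hmC (5hmC q = 0.098 per the authors' deposited table).

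Microtubule and neuronal genes of the stretch all held a 5mC site (9 of 9), with 37 of 45 sites lower, 22 of which are those of Frmd5 and Spg11. Map1a, which encodes a microtubule-associated protein, went against them with 2 of 3 5mC sites higher and 4 of 6 5hmC sites lower. Its higher site at 121293584 also lies within reach of Trp53bp1 and is the exception in that gene (65.4% and 100% per the authors' deposited table). Stard9, a mitotic kinesin gene, had 5 of 7 5mC sites lower. Metabolic and oxidase genes held a 5mC site in 12 of 14 members with 16 of 21 sites lower, and a 5hmC site in 9 with 20 of 31 higher. Slc28a2, a nucleoside transporter gene, had 3 of 3 5mC sites lower and 3 of 3 5hmC sites higher. Duox1, a hydrogen peroxide-generating oxidase gene, was split for both marks, with 1 of 2 5mC and 5 of 10 5hmC sites higher, and 4 of the higher 5hmC sites lay between 122337614 and 122337661. The remaining genes of chromosome 2 with higher 5mC sites alone had 1 site each. Patl2 and Trim69 shared theirs at 122180553 (4.55% and 66.7%), Duoxa2 was at 22.7% and 100% and Rpusd2 at 33.3% and 92.3%, per the authors' deposited table.

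On chromosome 3, St6galnac3, which encodes a sialyltransferase of gangliosides and glycoproteins, held 41 of the 155 5mC sites, 33 of them higher. Its higher sites had median levels of 23.8% in wild type (quartiles 15.9 and 33.3) and 72.2% in the knockout (quartiles 65 and 79.3). Of the 33, 31 lay at or beyond 153.5 Mb, where 4 sites of the gene were lower. The smallest p was at 153630375, with 24.1% and 79.5% (p = 6.64e-06, q = 0.166 per the authors' deposited table). Without this gene 79 of 114 5mC sites of the stretch were higher (69.3%), a split drawn after the values were seen. Its 20 5hmC sites were divided, 11 higher and 9 lower.

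The neighbouring sialyltransferase gene St6galnac5 and the adenylate kinase gene Ak5 fell in the block of mixed direction. St6galnac5 had 3 higher and 5 lower 5mC sites, and Ak5 had 2 and 4. Ak5 also held 16 5hmC sites, 10 of them higher, and 6 of these 10 lay between 152563293 and 152563359, where wild type was at 0% and the knockout at 22.0 to 37.5% per the authors' deposited table. Pigk, the gene of the transamidase that attaches GPI anchors, went against the stretch in both marks. Its 3 5mC sites were at 100% in WT and at 58.3%, 78.1% and 82% in the knockout per the authors' deposited table. All 7 of its 5hmC sites were lower, from 19.2 to 31.25% in wild type to 0 to 3.23% in the knockout, and 6 of them lay between 152763245 and 152763789. The list of sialyltransferases and membrane anchors thus had 36 of 52 5mC sites higher and 22 of 37 5hmC sites lower in 3 of 3 members, where 72.3% of 5mC and 61.0% of 5hmC sites in the stretch were higher.

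The receptor genes of chromosome 3 had all 7 of their 5mC sites higher, in 3 of 3 members, where 72.3% of 5mC sites in the stretch were higher and 49.4% of genes held one. Ptgfr, the prostaglandin F receptor gene, was at 29.6%, 22.9%, 28.6% and 28.6% in WT and at 72%, 56.25%, 92.3% and 85.7% in the knockout per the authors' deposited table. That its levels in the genotypes did not overlap is no result either, because only differences of at least 10 points are listed. Adgrl2, the latrophilin 2 gene, was at 68.75% and 100% (148945743) and at 16.7% and 61.1% (148971518) per the authors' deposited table, and its 2 5hmC sites were higher. Adgrl4, an adhesion receptor gene of endothelium, had a 5mC site at 33.3% and 100% and a 5hmC site elsewhere at 91.7% and 28.6%, per the authors' deposited table. Of the interferon-induced genes, 0 of 2 held a 5mC site and Ifi44 held 1 5hmC site, at 76.9% in WT and 4.35% in the knockout (q = 0.00253 per the authors' deposited table).

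Other genes of chromosome 3 had 14 of 21 5mC sites higher in 10 of 13 members of the list of RNA, chaperone, mitochondria and meiosis genes, and 21 of 29 5hmC sites higher in 8 members, beside 72.3% and 61.0% of sites in the stretch. Usp33, a deubiquitinase gene, was at 20% and 100% and at 11.1% and 73.3% per the authors' deposited table. Acadm, the gene of medium-chain acyl-CoA dehydrogenase, was at 10% and 53.3% and at 13.0% and 57.1% per the authors' deposited table. Gipc2, the gene of a PDZ-domain adaptor, had 3 of 4 5mC sites higher and 4 of 4 5hmC sites higher. In the non-coding genes Gm30382 and Gm31121, 5 of 5 and 4 of 4 5mC sites were higher. Nexn, the gene of the actin-binding protein nexilin, was lower (92.9% and 47.1% per the authors' deposited table).

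A q under 0.05 was given for 5 of the 478 5hmC sites, near the 1.08% of all listed 5hmC sites, and 4 of them were on chromosome 3. Apart from Ifi44 these were 150610843 (73.2% and 11.4%, q = 0.000609) and 151632710 (83.3% and 0%, q = 0.00363), both outside genes, and 153695807 in St6galnac3 and Gm5858 (0% and 60%, q = 0.00656), per the authors' deposited table. The fifth, on chromosome 7, was at 85522926 in the non-coding gene Gm18360 (0% and 21.05%, q = 0.000427 per the authors' deposited table). Of the 5, 3 were lower and 2 higher.

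On chromosome 7, Adamtsl3, which encodes a secreted ADAMTS-like matrix protein, held 10 5mC sites, 8 of them higher. Median levels over the 10 were 24.8% and 75%, and the smallest p was at 82609413 (5.56% and 88.9%, p = 3.48e-05, q = 0.614 per the authors' deposited table). Its 5hmC sites were higher at 6 of 8. Arnt2, the gene of a bHLH-PAS transcription factor that dimerises with neuronal partners, had 7 of 8 5mC sites higher. Wild-type levels ranged from 10 to 80.5% at these 7 and knockout levels from 51.85 to 100%, and the lower site was at 76.2% and 31.25%, per the authors' deposited table. Cfap161 had 4 of 4 higher, at 22.2%, 11.8%, 62.9% and 2.86% in WT and 100%, 66.7%, 93.1% and 35.85% in the knockout per the authors' deposited table.

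Mesd, which encodes a chaperone of LDL receptor-related proteins, and Tlnrd1, a talin rod domain gene, share the same 3 5mC sites, all higher. They were at 78.3%, 12.2% and 28.2% in WT and 95.95%, 37.9% and 58.1% in the knockout per the authors' deposited table. At the last of these, 83882970, 5hmC was lower (38.5% and 5.45%, q = 0.351 per the authors' deposited table). The list of signalling and transcription genes had 14 of 17 5mC sites higher in 4 of 7 members, but 6 of 15 5hmC sites higher in 5, beside 70.1% and 58.9% of sites in the stretch. Il16, a T-cell chemoattractant gene, had 1 higher and 2 lower 5mC sites. Mex3b, an RNA-binding protein gene, had 2 lower 5hmC sites (41.2% and 34.5% to 0% per the authors' deposited table).

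The matrix, metabolism and ribosome genes of chromosome 7 were mixed, with 13 of 23 5mC sites higher in 5 of 8 members and 15 of 27 5hmC sites higher in 7, beside the same shares. Cemip, a hyaluronan depolymerisation gene, had 2 higher and 4 lower 5mC sites, and the higher ones lay at its lower-coordinate end (83933555 and 83947243). Abhd17c, a depalmitoylase gene, was at 77.8% and 0% (p = 0.000153 per the authors' deposited table). Sh3gl3, the endophilin A3 gene, had 2 of 4 5mC and 5 of 7 5hmC sites higher. Efl1, whose product releases eIF6 from ribosomal subunits, had 4 of 5 5hmC sites lower, of which 3 are the promoter CpGs of 4933406J10Rik printed above.

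The vomeronasal receptor cluster at the upper end of the chromosome 7 stretch had 4 of 29 Vmn2r genes with a 5mC site, fewer than the 34.8% of genes in the stretch or the 33.1% of all genes. All 4 are pseudogenes with higher sites alone, where 70.1% of 5mC sites in the stretch were higher. Vmn2r-ps62 was at 23.5% and 76.9%, Vmn2r-ps67 at 0% and 80% and Vmn2r-ps76 at 25% and 100%, per the authors' deposited table. Vmn2r-ps66 had 3 sites between 85052007 and 85052111, at 15.4%, 14.8% and 40% in WT and 51.4%, 50% and 87.5% in the knockout per the authors' deposited table. Genes of this family share long stretches of sequence, and reads from near-identical copies may not be told apart. 5hmC sites were listed at 3 Vmn2r genes, 2 of 4 higher, and the 2 olfactory receptor genes held 0 sites of either mark.

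Near gene ends the chromosome 3 and 7 stretches were more one-sided than elsewhere. Within 2000 bp of an end 20 of 21 5mC sites were higher on chromosome 3 and likewise 20 of 21 on chromosome 7, whereas 47% of all listed 5mC sites near ends were higher. Ends here are those of whole genes. The promoter CpGs printed above for Cfap161 (5mC) and Gm5149 (5hmC) were not counted as near an end. Inside genes the counts were 58 of 84 and 38 of 54 (39.8% over all listed sites), and between genes 34 of 50 and 24 of 42 (37.8%). The lower exceptions near ends were at 3110067G11Rik on chromosome 3 (100% and 68.75%) and at Il16 on chromosome 7 (91.7% and 56.5%), per the authors' deposited table. The near-end sites spread over 18 genes or groups of neighbouring genes on chromosome 3 and 16 on chromosome 7. Most of those on chromosome 3 lay from 148 to 150 Mb or from 153.5 to 154 Mb. There 29 of 34 and 50 of 58 of all sites were higher, so nearness to an end and place along the stretch cannot be told apart. As the 5mC direction chose the stretches, these counts are a description. Chromosome 2 was least one-sided near ends, with 43 of 52 lower there, 164 of 182 inside genes and 75 of 82 between genes. For 5hmC near ends 11 of 28 sites were higher on chromosome 7, beside 60% of all listed 5hmC sites near ends, 39 of 65 on chromosome 2 and 8 of 13 on chromosome 3. Between genes 42 of 51 5hmC sites were higher on chromosome 2, 39 of 58 on chromosome 3 and 20 of 31 on chromosome 7 (68.1% over all listed sites), and inside genes 84 of 121, 42 of 75 and 25 of 36 (63.6%).

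Some positions were listed for both marks, 64 on chromosome 2 (20.3% of its 5mC and 27.0% of its 5hmC sites), 27 on chromosome 3 (17.4% and 18.5%) and 14 on chromosome 7 (12.0% and 14.7%). At 54 of the 64 on chromosome 2 (84.4%) 5mC was lower and 5hmC higher, beside 71.5% of all 12608 such positions, and at 10 it was the reverse. Chromosome 3 had 16 and 11, and chromosome 7 had 5 and 8. The sum of both levels differed between genotypes by at most 10 percentage points at 51 of 64 (79.7%), 23 of 27 (85.2%) and 9 of 14 (64.3%), beside 84.1% over all 12608. As said above, the library behind each level is uncertain, and if 5hmC was taken as a difference of both measurements the marks are tied by construction, so these positions are a description.

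The shared position with the largest differences lay in Slc30a4, a zinc transporter gene, at 122693133. It was at 100% and 0% 5mC and 0% and 100% 5hmC per the authors' deposited table. The authors' test gave p = 0.00126 for each mark and no q under 0.05. The equal p-values go with mirrored levels and are not counted as separate tests of this position. Its depth is unknown and such levels can rest on few reads, so it is not read as a full switch of marks. At Gm23131, a small gene of chromosome 3, both shared positions were opposite to that. Position 148353001 was at 11.1% and 82.4% 5mC and 66.7% and 0% 5hmC, and 148353854 at 4.35% and 48.15% 5mC and 45.45% and 4% 5hmC, per the authors' deposited table. A single shared position had the same direction in both marks, 82541610 in Adamtsl3, at 33.3% and 65.4% 5mC and at 4.88% and 33.3% 5hmC per the authors' deposited table.

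**Figure D4:**
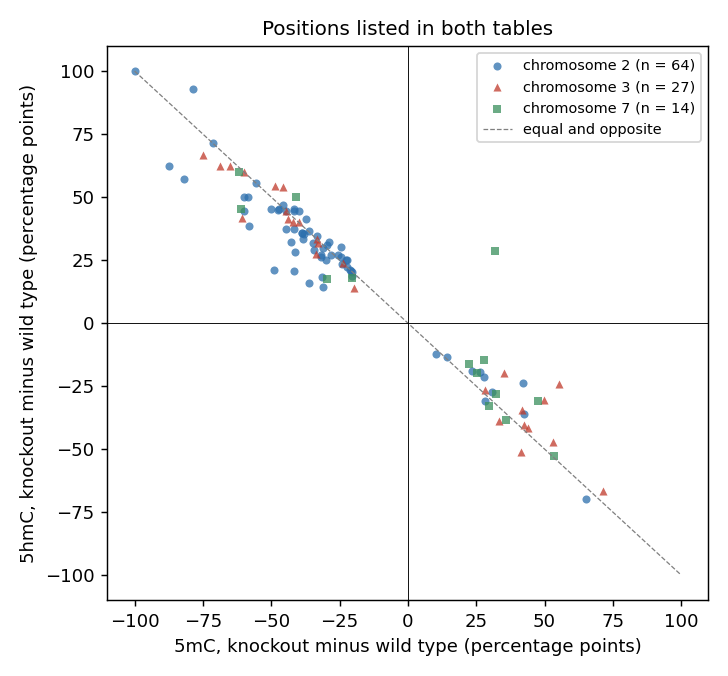
Difference between knockout and wild type in 5mC (horizontal axis, percentage points) against that in 5hmC (vertical axis, percentage points) at each position listed for both marks, with the dashed line where both are equal and opposite. Most of the 64 points of chromosome 2 lie at the upper left, where 54 have lower 5mC and higher 5hmC, and the 1 point at the upper right is the Adamtsl3 position.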

How the data were processed

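DNA methylation was measured in WT and HDAC6 KO LSK cells by WGBS and oxWGBS, with 1 library per genotype and assay. Per the file headers, each deposited table holds single cytosines with levels in WT and KO, the KO minus WT value, a p-value and its q-value. Levels were deposited as fractions and are printed as percent. The deposited differences equalled KO minus WT within 0.01 percentage points. Every deposited p-value was under 0.01; p-values and q-values come from the authors' test and compare single libraries. The smallest absolute difference was 10 points in both tables. Not given in the sources used here were the aligner, the caller, the test, the coverage and its filter. The depth of each value is thus unknown, and levels of 0 or 100% can rest on few reads. The submitters' processing notes name GRCm39, but 443 of 443 5mC and 843 of 843 5hmC positions in RefSeq promoter windows of GRCm38.p6 fell on a CpG there, so GRCm38 was used.

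Sites were selected by position and counted by direction, in 0.5 Mb bins, by gene (inside or within 2000 bp of either end, RefSeq genes of GRCm38.p6) and against the rest of the chromosome. "Near a gene end" means within 2000 bp of any end and takes precedence over "inside a gene". Intervals on shares are exact binomial. No test was run. Named genes were the 8 with most sites and the 4 with the smallest q per stretch and table, those with a position in both tables, and list members. The stretches, genes and lists were chosen with earlier results of these data known. The scripts were tested on simulated data and used Python 3.11.15, pandas 2.3.3, numpy 2.4.6, scipy 1.17.1 and matplotlib 3.10.9. Alternatives were stricter thresholds, merged neighbours, sites at exactly 0 or 100% left out, borders moved by 1 Mb, and other gene margins.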

Additional observations from a re-analysis of the deposited data

How the results depend on the processing

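Of 126 values computed under alternatives, 91 kept their direction and stayed within the tolerance used, 33 moved beyond it and 2 reversed. The tolerance was the 95% exact binomial interval for a share, the 95% order-statistic interval for a median and a factor of 1.5 for counts and densities, so values within it can still differ widely: genes with higher 5hmC alone on chromosome 2 went from 43 to 64 within 10000 bp, and 5mC sites per Mb on chromosome 3 from 25.8 to 18 with borders 1 Mb inwards. No stretch turned its 5mC direction in these alternatives, which says little because that direction chose the stretches. The reversed values are both for 5hmC on chromosome 3. Without sites at exactly 0 or 100% in either genotype, the higher share was 48.3% and the median difference -13.9 points. These rest on the 29 sites left, too few to establish a turn. That setting also gave higher 5hmC shares of 77.1% on chromosome 2 (35 sites) and 70.4% on chromosome 7 (27 sites). Its lower 5mC shares were 83.4%, 16.2% and 19.0% on chromosomes 2, 3 and 7 (151, 111 and 79 sites). With p under 0.001 the lower 5mC share was 15% on chromosome 3 (20 sites) and 20% on chromosome 7 (15 sites). The higher 5hmC share on chromosome 2 was then 76.3% (38 sites). With borders 1 Mb inwards the lower 5mC share was 36.1% on chromosome 3 and 36.7% on chromosome 7, the latter within the tolerance. With differences of at least 30 points the higher 5hmC share on chromosome 2 was 84.1%.

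The median 5mC differences with at least 30 points were -38.9 on chromosome 2 and 39.97 on chromosome 7, and with p under 0.001 -32.1, 47.6 and 54.9 on chromosomes 2, 3 and 7. Median 5hmC differences with at least 30 points were 36.4, 33.3 and 36.3, and with p under 0.001 30.99 on chromosome 2. Genes in the prevailing 5mC direction alone numbered 29, 6 and 7 with p under 0.001, 100 on chromosome 2 within 10000 bp and 9 on chromosome 7 inside genes only. Genes with higher 5hmC alone numbered 21 and 7 on chromosomes 2 and 3 with p under 0.001, and 25 and 13 on chromosomes 3 and 7 within 10000 bp. Positions in both tables numbered 31 on chromosome 2 and 6 on chromosome 7 with at least 30 points, and 4, 1 and 1 with p under 0.001. The cause of these shifts was not tested beyond the smaller or larger number of sites that each setting leaves. Leaving out the gene with most 5mC sites was chosen after seeing the data, and moved no share or median beyond the limits used.

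No paired analysis was possible because the values come from the authors' comparison of single libraries and from no test. There is 1 library per genotype and assay, the depth of each level is unknown, and the deposited q-values compare single libraries in which reads are not replicates, so no single site, including those with small q, has support beyond these libraries.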
